A study of Mus musculus with 4 samples.

Results

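The 48 genes described here are the Wnt ligands, their receptors and co-receptors, the secreted antagonists and the 2 proteins that prepare ligands for release, out of 55422 gene identifiers in the count matrices. They were chosen by name and found by Ensembl identifier, and all 48 matched GENCODE release M21 (GRCm38) by identifier and version. They comprise 18 ligands, 10 frizzled receptors, 2 LRP co-receptors, 3 tyrosine kinase-like receptors, 5 secreted frizzled-related proteins, 6 other secreted antagonists, 2 Dkk receptors, and Porcn and Wls. R-spondins and their receptors are not among them. RNA of single nuclei from the hippocampus of adult mice was counted in 4 libraries made with the 10x Genomics Chromium kit. The 2 Control libraries came from Kat6a-f/f mice, which carry loxP-flanked Kat6a and no Cre, and the 2 Kat6a-cKO libraries from NEX-cre, Kat6a-f/f mice. NEX-cre expresses Cre from the Neurod6 locus, which is used by developing excitatory neurons of cortex and hippocampus and not by interneurons or most glia. Nothing in the labels says how many animals each library holds or ties libraries to a batch, so p-values measure the spread between these libraries.

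Wnt ligands are lipid-modified secreted proteins. Porcn attaches the lipid, and Wls carries the finished ligand to the cell surface. A ligand binds a frizzled receptor together with Lrp5 or Lrp6 to stabilise beta-catenin, or signals without beta-catenin through Ror1, Ror2 or Ryk. Secreted frizzled-related proteins, Wif1 and Notum act on the ligand, whereas Dkk1 and Dkk2 bind the LRP co-receptors and, with Kremen, can remove them from the membrane. Dkk3 is a divergent member of the Dkk family. In the hippocampus the pathway is known for forming the region in the embryo and for maintaining granule cell production in the adult.

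The libraries held between 171323466 and 186897245 counts of unique molecular identifiers (UMIs). Between 7911 and 8442 barcodes per library had at least 5000 UMIs, and 15 to 20 barcodes were shared between any 2 libraries. Nuclei were sorted into 17 classes by markers, with the 48 genes kept out of the clustering, and 14 of these classes had at least 30 nuclei in each library. In 13 of the 14 every marker of the class was detected. In committed oligodendrocyte precursors 6 of 7 were, and Gpr17, a defining marker, was listed at 0 there and in 15 of the other 16 classes. Levels are UMI counts scaled to a common class total (CPM). Among the 14 classes, free RNA from broken cells was estimated at 1.79% to 11.4% of the counts in neuronal ones and at 12.9% to 27.2% in glial ones. No Cre transcript was counted in CA3 or CA1 nuclei of either Control library. They reached 39 and 54 counts in the CA3 nuclei and 52 and 57 counts in the CA1 nuclei of the Kat6a-cKO libraries. Kat6a RNA in CA3 nuclei was 63.0 and 66.1 CPM (Control) against 59.6 and 65.1 CPM (Kat6a-cKO). These counts cover the whole gene and do not separate a floxed exon, so they do not check the deletion.

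A level of at least 5 CPM, as the mean of 4 libraries, was reached by 30 of the 48 genes in at least 1 of the 14 classes. For 13 of the 30, every library of the highest class lay above every library of the class ranked second. The share of all genes for which this holds was not computed. The count therefore does not show whether these genes are more limited to a class than others. Class levels are given as descriptions without a test. Ranks of classes are over these 14 and over the mean of both genotypes. For 7 of the 30 genes (Wnt2b, Wnt4, Wnt7a, Fzd3, Lrp6, Ror2 and Kremen1) the highest class was not the same in both genotypes, and 8 of the 30 had a higher mean in 1 of the 3 classes too small for the genotype comparison. The heat map of mean levels shows these 30 genes across the classes.

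**Figure D1:**
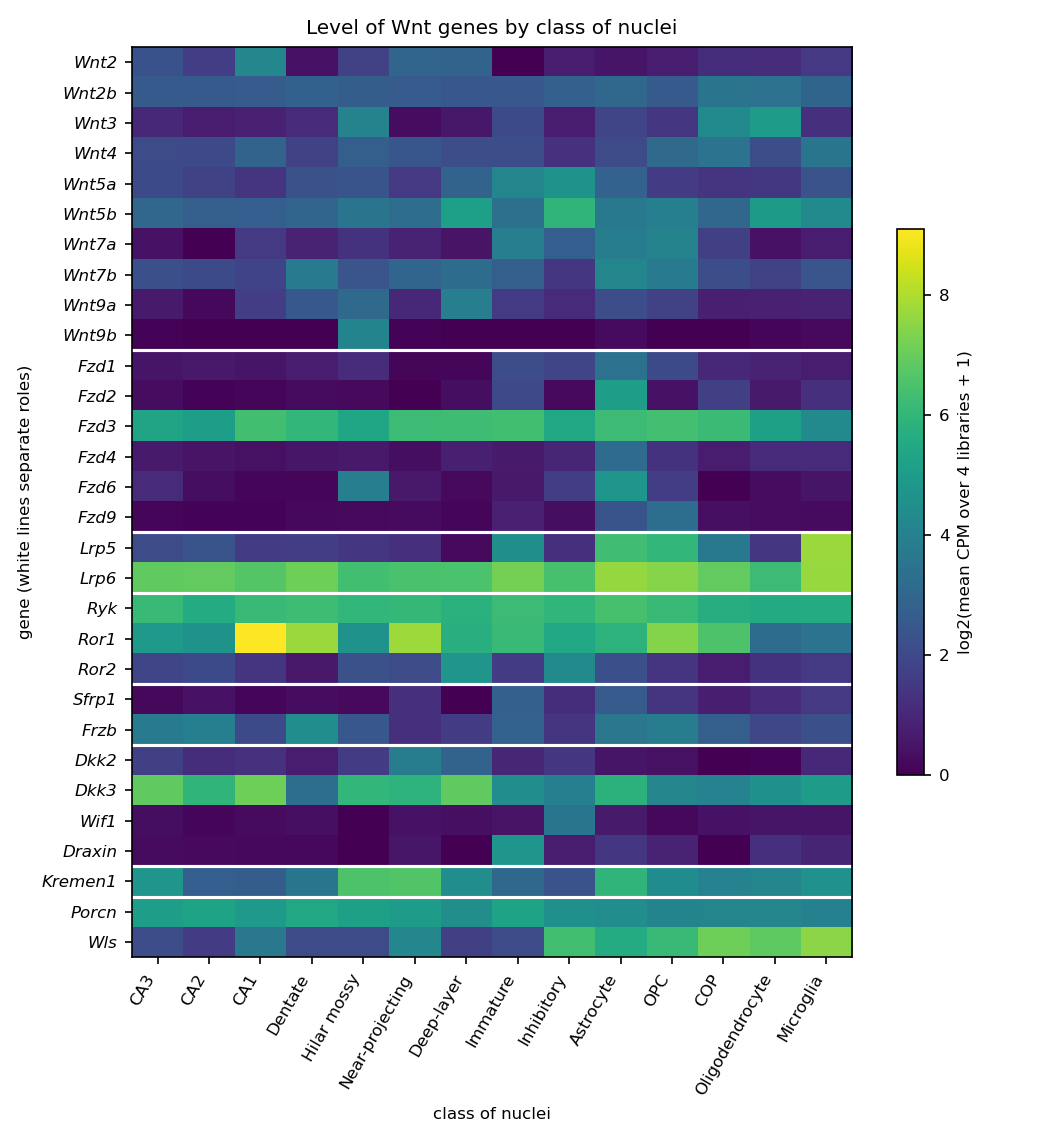
Mean level of the 30 genes that reached 5 CPM, as log2(mean CPM + 1) over 4 libraries, in rows by role and in columns by class of nuclei. Wnt9b, Wif1 and Draxin stood out in 1 class each, whereas Lrp6, Ryk, Fzd3 and Porcn were present in all 14.

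Among the 18 ligands, 10 reached 5 CPM. Wnt2, a ligand that can act through beta-catenin, was highest in CA1 pyramidal nuclei, at 18.2 and 20.2 CPM (Control) against 13.3 and 19.3 CPM (Kat6a-cKO). All 4 values exceeded those of near-projecting excitatory nuclei, the class ranked second, which ranged from 2.89 to 10.4 CPM. CA3 nuclei held 3.91 CPM of Wnt2 on average and dentate granule nuclei 0.371 CPM. Within CA1 the gene was unevenly spread. The clusters led by 4921539H07Rik and by Gm30382 had means of 26.1 ± 3.5 and 27.4 ± 5.15 CPM (SD, n = 4 libraries), and the other 3 CA1 clusters had means between 7.76 and 10.7 CPM. After thinning every nucleus to 5000 UMIs, 7.99% ± 1.35 (SD, n = 4) of CA1 nuclei held a Wnt2 molecule, against 1.83% ± 0.511 of CA3 nuclei, and the unthinned shares were 22.7% and 8.29%.

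Wnt9b was nearly limited to hilar mossy nuclei, the excitatory neurons of the dentate hilus. Its levels there were 15.7 and 19.8 CPM (Control) against 18.5 and 11.6 CPM (Kat6a-cKO), from 85 molecules in 182 nuclei. Of the 97 Wnt9b molecules in all named classes, 85 lay in this class, and no other of the 14 had a mean above 0.191 CPM. A Wnt9b molecule was present in 7.41% ± 1.91 (SD, n = 4) of mossy nuclei thinned to 5000 UMIs and in 32.4% of them without thinning. In CA3 nuclei, of similar depth, the thinned share was 0.0482%, and the median depths were 26340.5 UMIs in mossy and 24428 UMIs in CA3 nuclei.

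Wnt3, a beta-catenin ligand, was highest in oligodendrocytes, with 29.9 and 35.0 CPM (Control) against 27.4 and 31.8 CPM (Kat6a-cKO). Committed oligodendrocyte precursors followed with 19.6 ± 6.14 CPM (SD, n = 4), a range that overlapped that of oligodendrocytes, and OPC had 1.69 CPM. The only neuronal class above 5 CPM was the hilar mossy class, with 16.8 and 19.2 CPM (Control) against 14.0 and 13.1 CPM (Kat6a-cKO). Wnt9b (chromosome 11, 103727364 to 103749821, minus strand) and Wnt3 (chromosome 11, 103774150 to 103817957, plus strand) are neighbours that point away from each other, and their starts lie 24329 bases apart. Mossy nuclei were the one class in which both exceeded 5 CPM. Neither gene passed between genotypes in that class. Wnt9b had overlapping groups (log2 fold change −0.22 ± 0.35 SE, Kat6a-cKO over Control, edgeR adjusted p = 0.924). Wnt3 had none, as for 38.9% of all genes tested in mossy nuclei (−0.38 ± 0.34, edgeR adjusted p = 0.834).

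The 250 bases before the RefSeq start are shown for the neighbours Wnt9b and Wnt3, for Wnt2, and for Wnt5b because 1 of its windows holds the motif searched for. They are RefSeq sequences on GRCm38.p6, and 33 of the 48 genes had an entry. RefSeq starts can differ from those of GENCODE: 25 bases of the Wnt3 window, 140 of the Wnt2 window and all 250 of the Wnt5b window lie inside the gene as GENCODE places it. Capitals mark CTTTGAT or CTTTGAA on either strand, the core recognised by TCF and LEF factors. Of 32536 distinct windows of this length, 7.5% held such a match. Counted by gene, 3 of the 33 had a match in a window: Dkk1, Wnt11 and Wnt5b. A gene can have several windows, so the shares are not directly comparable. Wnt5b has 3 entries, and the match lies in the window of the third, the one shown. A match in letters is not evidence of binding, and binding was not measured.
Wnt9b chr11:103749822-103750071 minus strand: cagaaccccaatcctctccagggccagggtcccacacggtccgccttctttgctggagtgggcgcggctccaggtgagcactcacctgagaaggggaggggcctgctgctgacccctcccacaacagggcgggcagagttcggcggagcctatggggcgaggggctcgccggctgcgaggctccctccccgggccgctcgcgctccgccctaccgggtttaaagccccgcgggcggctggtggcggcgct
Wnt3 chr11:103773925-103774174 plus strand: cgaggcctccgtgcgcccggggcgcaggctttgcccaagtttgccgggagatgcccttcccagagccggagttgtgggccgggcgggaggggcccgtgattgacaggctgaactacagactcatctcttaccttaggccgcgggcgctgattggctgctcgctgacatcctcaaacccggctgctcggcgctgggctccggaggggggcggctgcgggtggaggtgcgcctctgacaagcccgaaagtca
Wnt2 chr6:18030446-18030695 minus strand: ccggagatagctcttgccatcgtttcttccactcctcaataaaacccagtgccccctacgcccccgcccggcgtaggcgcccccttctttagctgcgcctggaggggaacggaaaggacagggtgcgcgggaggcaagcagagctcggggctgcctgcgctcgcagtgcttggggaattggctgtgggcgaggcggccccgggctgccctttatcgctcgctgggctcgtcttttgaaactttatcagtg
Wnt5b chr6:119449387-119449636 minus strand: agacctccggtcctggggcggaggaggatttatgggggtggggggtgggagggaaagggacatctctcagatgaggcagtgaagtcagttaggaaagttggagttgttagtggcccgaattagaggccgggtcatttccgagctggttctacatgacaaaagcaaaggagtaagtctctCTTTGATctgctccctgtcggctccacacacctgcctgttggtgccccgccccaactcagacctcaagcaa

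Wnt5a and Wnt5b, ligands known mostly for signalling without beta-catenin, were both highest among the 14 classes in inhibitory neurons. Wnt5b had 67.5 and 51.6 CPM (Control) against 61.2 and 62.2 CPM (Kat6a-cKO), above all 4 libraries of deep-layer excitatory nuclei (26.0 to 45.0 CPM). Oligodendrocytes held 29.7 CPM of Wnt5b on average, and CA1 nuclei the lowest level of the 14 classes, 5.61 CPM. Wnt5a was less sharply placed, at 24.5 ± 7.47 CPM (SD, n = 4) in inhibitory neurons and 17.1 ± 4.13 CPM in immature neurons, with overlapping ranges. Fbxl14 lies within Wnt5b on the opposite strand and is listed at 0 in every class, and the counting strand is not given in the sources used here. How reads of the overlap were assigned was not tested.

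**Figure D2:**
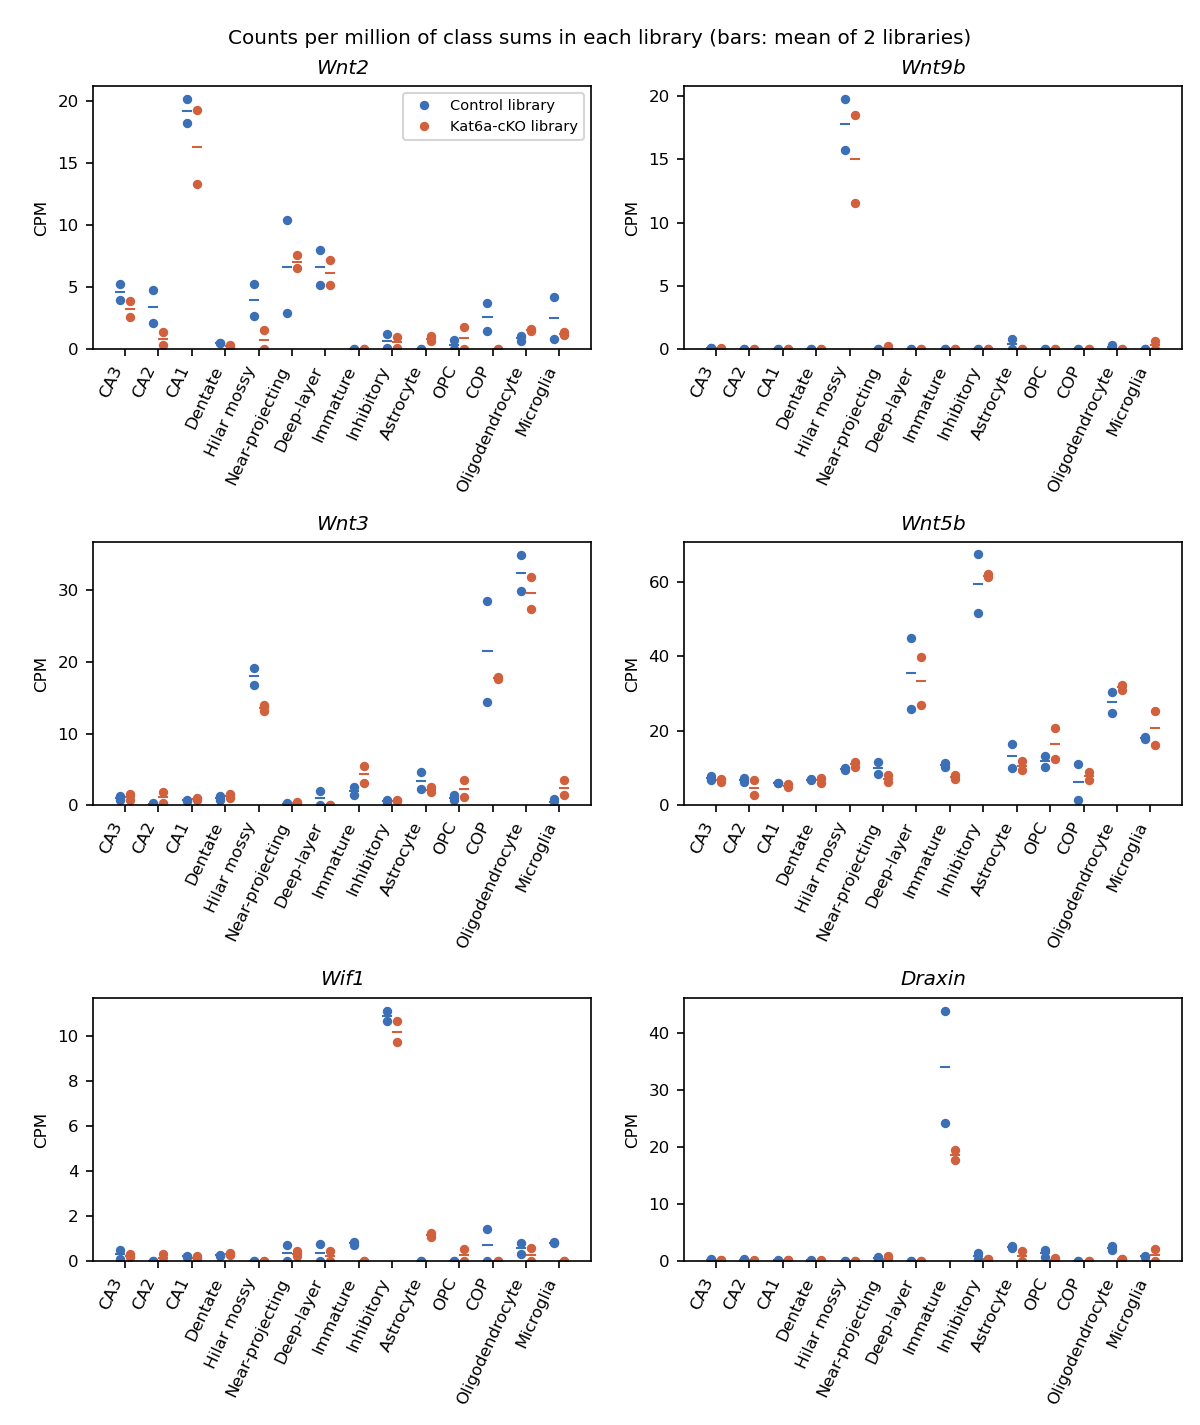
Level in CPM of 4 ligands and 2 antagonists in each library, by class, with Control libraries in blue, Kat6a-cKO libraries in orange and short bars for the mean of 2. Wnt2 peaks in CA1, Wnt9b in mossy nuclei, Wnt3 in oligodendrocytes with a lesser level in mossy nuclei, Wnt5b and Wif1 in inhibitory neurons and Draxin in immature neurons.

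Interneuron subclasses differed widely in their ligands. Wnt5b reached 301 ± 33.9 CPM in Vip nuclei and 128 ± 12.5 CPM in Parvalbumin-type nuclei (SD, n = 4). It was at 31.7 CPM in Cck-type, 16.4 CPM in Sst and 8.38 CPM in Lamp5-type nuclei. These 5 ranges did not overlap. Wnt5a had a different order, with 64.3 ± 15.5 CPM in Cck-type and 43.4 ± 17.8 CPM in Vip nuclei, which overlapped, and at most 13.8 CPM in the other 3. Wnt10a, which reached no more than 3.04 CPM in any of the 14 classes, had 6.64 ± 1.11 CPM in Vip nuclei, from 21 molecules. Wnt16 had its highest subclass level in Sst nuclei, 4.76 CPM from 26 molecules. The release protein Wls reached 157 ± 8.77 CPM in Cck-type nuclei and was lowest in Sst nuclei (17.5 ± 3.73 CPM) and in Vip nuclei (17.4 ± 4.32 CPM), the subclass of highest Wnt5b. Ror1 was at 158 ± 15.4 CPM in Cck-type nuclei, 30.3 CPM in Lamp5-type and at most 6.85 CPM in the other 3. Wif1 and Dkk2 were highest in Lamp5-type nuclei. There Wif1, which binds Wnt proteins, had 30.1 ± 5.1 CPM, with 18.1 ± 1.84 CPM in Cck-type and at most 2.25 CPM elsewhere, and Dkk2 had 11.1 ± 6.43 CPM against at most 1.001 CPM.

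**Figure D3:**
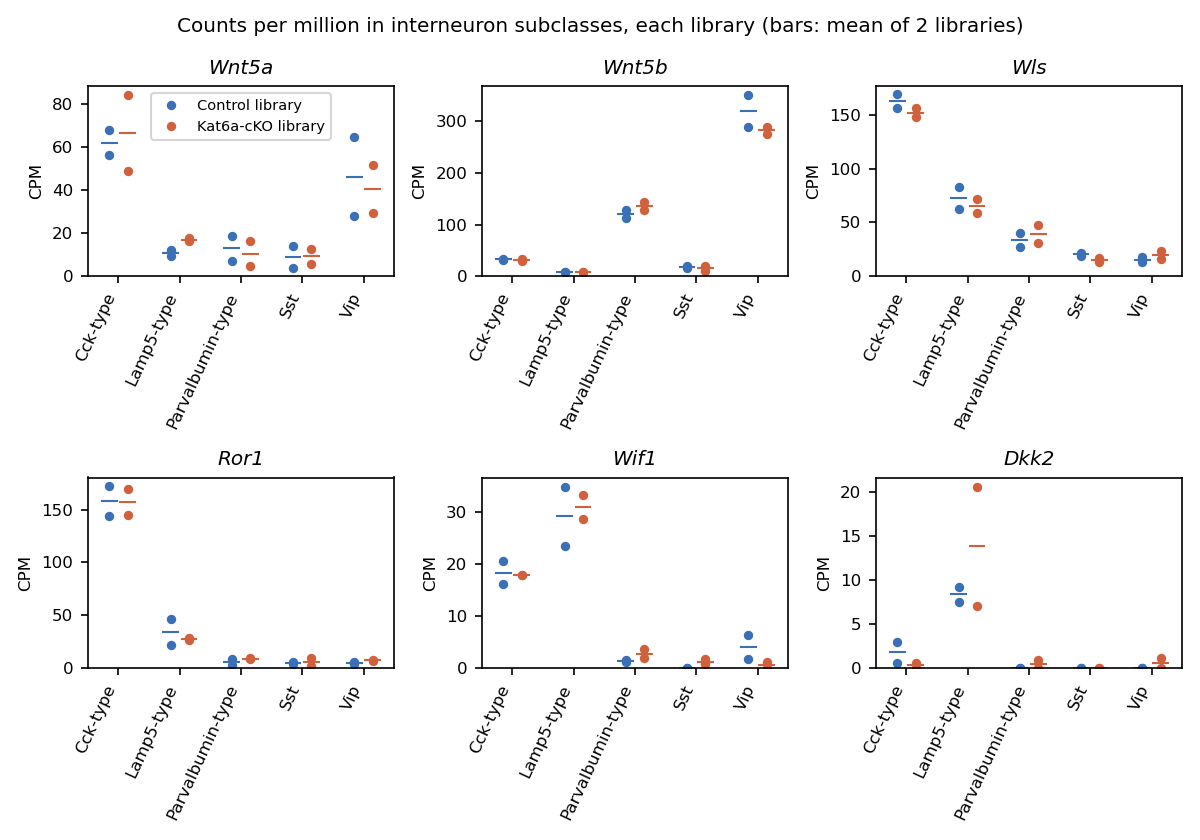
Level in CPM of 6 genes in 5 interneuron subclasses, one point for each library (Control blue, Kat6a-cKO orange) and short bars for the mean of 2. Wnt5b is highest in Vip and Parvalbumin-type nuclei, Wls and Ror1 in Cck-type nuclei, and Wif1 and Dkk2 in Lamp5-type nuclei.

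The other 5 ligands that reached 5 CPM were Wnt7a, Wnt7b, Wnt9a, Wnt2b and Wnt4. Wnt7a, a ligand of oligodendrocyte precursors and of vascular development, had 15.8 CPM in OPC, 13.8 CPM in immature neurons and 13.2 CPM in astrocytes, and 0 molecules in CA2 nuclei. Wnt7b was highest in astrocytes, with 17.2 ± 1.49 CPM (SD, n = 4), every library above the range of dentate granule nuclei (11.7 to 13.1 CPM). In CA3 it was higher in the smaller of 2 clusters, the one led by Armc4, with 12.02 ± 2.06 CPM against 1.83 ± 0.663 CPM in the one led by Nectin3 (SD, n = 4). Wnt9a was highest in deep-layer excitatory nuclei, at 14.0 ± 3.98 CPM, which overlapped mossy nuclei, and reached 5 CPM in these 2 classes alone of the 14. Wnt2b was at 4.51 to 10.3 CPM in all 14 classes, and Wnt4 at 1.45 to 10.7 CPM, highest in microglia with only 52 molecules. The remaining 8 ligands stayed below 5 CPM in each of the 14 classes. Wnt8b is an example, with 24 of its 102 molecules in astrocytes, where its mean was 3.53 CPM.

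Among the 10 frizzled receptors, 6 reached 5 CPM and 4 of these were highest in astrocytes. Fzd2 had 42.1 and 25.3 CPM in Control astrocytes and 23.5 and 40.0 CPM in Kat6a-cKO astrocytes, and no other class of the 14 had a mean above 3.01 CPM. Fzd1 had 9.77 ± 1.97 CPM and Fzd4 8.12 ± 1.34 CPM in astrocytes (SD, n = 4), again above every library of the class ranked second. Fzd6 had 26.5 ± 7.01 CPM in astrocytes and, among neurons, 13.8 ± 5.62 CPM in mossy nuclei, with overlapping ranges. Fzd9 was highest in OPC, at 8.76 ± 1.99 CPM, followed by astrocytes at 4.09 CPM. Fzd3, a receptor known for axon guidance, was the exception in breadth, with 19.0 CPM in microglia as its lowest level among the 14 classes and 82.7 CPM in OPC as its highest. Cajal-Retzius nuclei, too few for the genotype comparison, held 88.5 CPM of Fzd3 from 83 molecules. In 68 endothelial nuclei, too few for the genotype comparison, Fzd4 had 157 ± 40.6 CPM from 34 molecules and Fzd6 had 335 ± 19.6 CPM from 78 molecules, above every class of the 14. In 58 mural nuclei, also too few, Wnt5b ranged from 24.4 to 325 CPM and Ror1 from 242 to 1656 CPM over the libraries.

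The co-receptors Lrp5 and Lrp6 were both highest in microglia. Lrp5 was unequal between classes, with 219 and 222 CPM in Control microglia, 203 and 198 CPM in Kat6a-cKO microglia, 77.7 CPM in astrocytes and 63.6 CPM in OPC. In 9 of the 14 classes, CA3, CA1 and dentate granule nuclei among them, its mean was below 5 CPM. The lowest level of Lrp6 was 73.4 CPM, in oligodendrocytes. Its levels in microglia (206 ± 28.5 CPM) and astrocytes (201 ± 21.7 CPM) overlapped. The free RNA estimated in microglia amounts to 6.84 CPM of Lrp5 and 21.3 CPM of Lrp6.

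Ror1 had its highest level among the 14 classes in CA1 nuclei, with 483 and 550 CPM (Control) against 545 and 605 CPM (Kat6a-cKO). Near-projecting excitatory nuclei (214 ± 41.3 CPM) and dentate granule nuclei (212 CPM) came next, while CA3 nuclei held 28.2 CPM and CA2 nuclei 24.2 CPM. Clusters of the same class differed severalfold. Dentate clusters ranged from 57.5 ± 2.59 CPM, in the one led by Gm6999, to 338 ± 26.8 CPM, in the one led by Ano2, and CA1 clusters from 286 to 703 CPM. In CA3 the cluster led by Armc4 had 72.4 ± 8.06 CPM and the cluster led by Nectin3 18.9 ± 3.95 CPM. Ror2 was highest in deep-layer excitatory nuclei, where libraries spread from 3.0 to 44.9 CPM, and inhibitory neurons followed with 19.4 ± 3.83 CPM. In Control alone the order was turned, with means of 13.4 CPM in deep-layer nuclei and 17.9 CPM in inhibitory neurons. Ryk varied little, from 46.4 CPM in oligodendrocytes to 87.2 CPM in astrocytes.

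The secreted antagonists were distributed over different classes. Frzb, a frizzled-related decoy, was highest in dentate granule nuclei at 21.1 ± 3.55 CPM and overlapped CA2 nuclei at 14.3 ± 4.3 CPM. Sfrp1 was highest in immature neurons at 5.97 CPM, from 26 molecules, and overlapped astrocytes at 5.15 CPM. Sfrp2 and Sfrp4 passed 5 CPM only in endothelial and mural nuclei, from 3 molecules and 1 molecule. Dkk3 was highest in CA1 nuclei at 134 ± 7.35 CPM and was also high in CA3 and deep-layer excitatory nuclei, both at 117 CPM, but was at 8.7 CPM in dentate granule nuclei. Wif1 was highest in inhibitory neurons, with 11.1 and 10.6 CPM (Control) against 9.70 and 10.6 CPM (Kat6a-cKO), and 447 of its 557 molecules, and no other of the 14 classes had a mean above 0.584 CPM. Draxin, an axon guidance protein that antagonises Wnt, had 26.4 ± 12.1 CPM in immature neurons and at most 1.69 CPM in any other of the 14. Draxin overlaps Mad2l2 on the opposite strand, and Mad2l2 was also highest among the 14 classes in immature neurons, at 25.8 CPM. In barcodes of 10 to 100 UMIs the counts of these genes differed, with 74 molecules of Mad2l2 and 1 of Draxin. How reads of the overlap were assigned was not tested. Dkk1 had 4 molecules in all named classes and Notum 23.

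Kremen1, the Dkk receptor that removes LRP co-receptors from the membrane, was highest in near-projecting excitatory nuclei (97.8 ± 16.2 CPM) and mossy nuclei (93.5 ± 17.9 CPM), which overlapped. CA3 nuclei held 25.8 CPM, dentate granule nuclei 10.6 CPM and CA1 nuclei 5.5 CPM. The near-projecting level came from 1 of its 2 clusters: the cluster led by Vwc2l had 125 to 136 CPM and the cluster led by Npsr1 0 to 3.0 CPM. Dkk3 had the opposite placement, at 6.63 to 17.2 CPM in the cluster led by Vwc2l and 163 to 214 CPM in the other. Porcn was broad, from 14.8 CPM in microglia to 41.4 CPM in dentate granule nuclei. Wls was high in glia and low in most excitatory neurons. Microglia had 172 and 182 CPM of Wls (Control) against 183 and 195 CPM (Kat6a-cKO), committed precursors 137 CPM, oligodendrocytes 113 CPM and inhibitory neurons 80.6 CPM, against 3.41 CPM in CA3, 3.22 CPM in dentate granule and 1.97 CPM in CA2 nuclei. In these 3 classes free RNA, with a profile taken from barcodes of 10 to 100 UMIs, was estimated to give 3.03, 4.33 and 2.41 CPM of Wls, so their levels are at background.

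Setting the genotypes against each other inside a class asks whether these genes differ between Kat6a-cKO and Control, with the title of the series pointing to Wnt signalling in CA3. Control mice carry no Cre, so an effect of Kat6a loss cannot be told apart from one of the NEX-cre allele. None of the 48 genes passed a Benjamini-Hochberg adjusted p of 0.05 over all genes in any of the 14 classes by edgeR's quasi-likelihood test, and none by DESeq2 where it gave an adjusted p. DESeq2 left that p undefined for 103 of 250 pairs of gene and class, among them 16 of 25 in CA3 and all 12 in immature neurons, and those pairs carry no DESeq2 call in either direction. DESeq2 called 0.157% of all genes in CA3, 0.75% in CA1, 1.32% in dentate granule, 0.138% in CA2, 0.58% in mossy, 0.205% in near-projecting and 0.235% in deep-layer nuclei. In immature neurons it called 0.0212%, in inhibitory neurons 0.0818%, in astrocytes 0.25%, in oligodendrocytes 0.0694%, and in OPC, committed precursors and microglia 0%. In CA3, 0 of the 25 genes with enough counts passed, where 0.0131% of 15275 genes tested did, and 2 of 25 had an unadjusted p under 0.05, where 7.85% of all genes did. Of the 25, 10 had a positive and 15 a negative log2 fold change, with a median of −0.05 beside −0.00455 for all genes. In CA1, 0 of 27 passed (0.0914% of all genes) and 1 of 27 had an unadjusted p under 0.05 (8.93% of all genes), with a median log2 fold change of 0.01 beside −0.00186 for all genes. In dentate granule nuclei, 0 of 31 passed (0.399% of all genes) and 2 of 31 had an unadjusted p under 0.05 (9.91%), with a median of −0.01 beside 0.00423 for all genes. In these 3 classes the share of the 48 genes with a small p was near or below that of all genes.

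Other excitatory classes gave 0 passing genes as well. The background was 0.0368% in CA2 (15 genes tested), 0.714% in mossy nuclei (12 tested), 0.0492% in near-projecting (16 tested) and 0.791% in deep-layer nuclei (13 tested). Genes with an unadjusted p under 0.05 numbered 1, 1, 3 and 4 in these classes, where all genes gave 6.87%, 9.1%, 7.36% and 10.2%. The near-projecting and deep-layer counts were thus above the share of all genes. Counts given below, such as those of immature neurons and microglia, were above it too, and each rests on few genes. In immature neurons 0 of 12 passed and 3 had an unadjusted p under 0.05, beside 0% and 8.78% of all genes. In inhibitory neurons 0 of 29 passed and 1 had such a p, beside 0.0545% and 6.6%. In astrocytes 0 of 19 passed and 2 had such a p, beside 0.428% and 7.1%, and in oligodendrocytes it was 0 of 14 for both, beside 0.13% and 8.2%. OPC (15 tested, 1 with such a p), committed precursors (10 tested, 0) and microglia (12 tested, 2) had 0% of all genes passing, and 6.59%, 4.54% and 8.4% with an unadjusted p under 0.05. Over the 14 classes 41 of the 48 genes were tested at least once, and 23 of 250 pairs of gene and class, or 9.2%, had an unadjusted p under 0.05, 11 higher and 12 lower in Kat6a-cKO. Of the 164836 pairs of any gene tested and class, 8% had one.

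**Figure D4:**
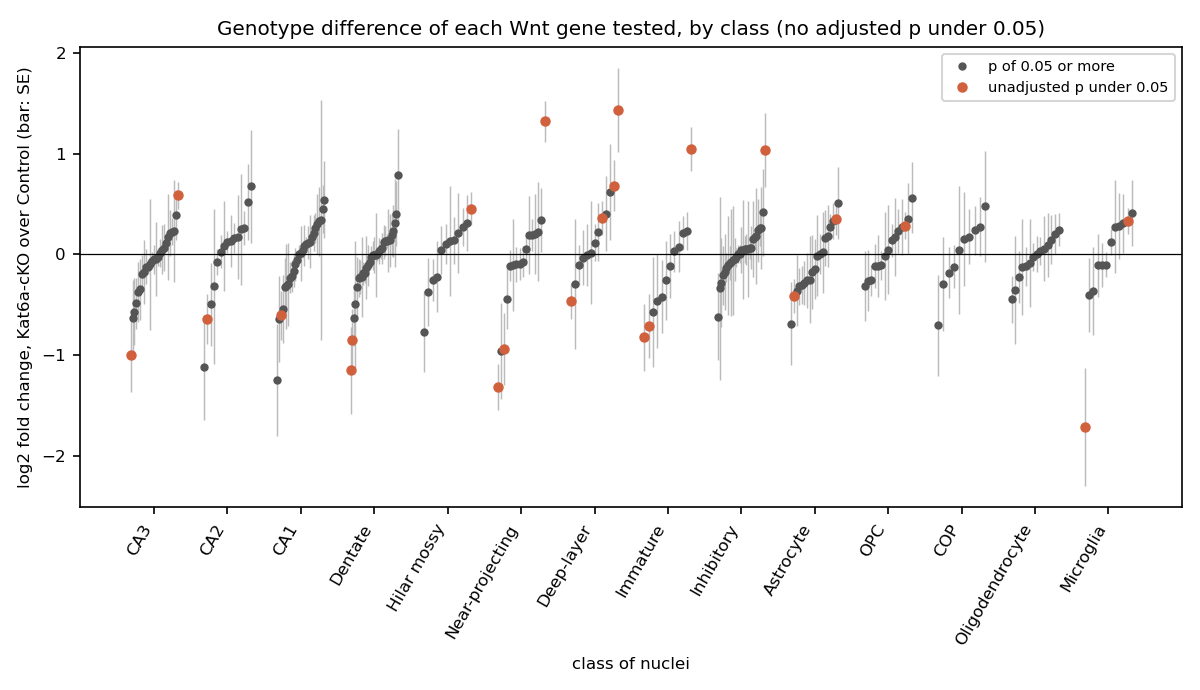
Log2 fold change of Kat6a-cKO over Control with its standard error for each gene tested, ordered by size within each of 14 classes. Orange points have an unadjusted p under 0.05 (23 of 250, or 9.2%, beside 8% over all genes), and no point has an adjusted p under 0.05.

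The 6 genes of highest CPM in CA3 had log2 fold changes between −0.12 and 0.23, none past the threshold. Lrp6 had 114 and 112 CPM (Control) against 122 and 121 CPM (Kat6a-cKO), a log2 difference of 0.11 ± 0.08 (SE, edgeR adjusted p = 0.791). Dkk3 had 117 and 127 CPM (Control) against 107 and 116 CPM (Kat6a-cKO), −0.12 ± 0.07 (edgeR adjusted p = 0.763). Ryk, Fzd3 and Porcn differed by −0.06 ± 0.08, 0.01 ± 0.13 and −0.02 ± 0.09, with overlapping groups. Ror1 had 21.5 and 30.8 CPM (Control) against 29.6 and 31.1 CPM (Kat6a-cKO), also overlapping (0.23 ± 0.13, edgeR adjusted p = 0.754).

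Kremen1 (chromosome 11, 5191552 to 5261558, minus strand) had the smallest p of the 25 genes in CA3. Its levels were 17.3 and 24.2 CPM (Control) against 31.5 and 30.4 CPM (Kat6a-cKO). The groups did not overlap, as for 36.4% of all genes tested in CA3, and the log2 difference was 0.59 ± 0.13 (SE), which did not pass over all genes (unadjusted p = 0.000959, edgeR adjusted p = 0.208, DESeq2 adjusted p = 0.0981). With no filter on low counts the edgeR adjusted p was 0.000559. With equal replicate numbers as a block, a pairing that the labels do not state, it was 0.00864, where 252 genes in all passed. Kremen1 passed without the second Control library but not without each of the other 3 libraries. Such a fit leaves a single library in a group, so its spread comes from the other group alone. The log2 difference ran from 0.40, without the first Control library, to 0.81, without the second. The genes passing in CA3 among all tested numbered 2 in the full fit, 297 without the second Control library and 294 with no filter. The cluster led by Nectin3 had 18.1 and 26.4 CPM (Control) against 36.3 and 34.2 CPM (Kat6a-cKO). In the cluster led by Armc4 the values were 12.6 and 15.2 CPM (Control) against 10.5 and 11.2 CPM (Kat6a-cKO). Summed levels of 8 of 25 marker lists did not overlap between genotypes in CA3 nuclei, a share near that of all genes. Among the 8 were the CA3 list, at 4722 to 4750 CPM (Control) against 4763 to 4804 CPM (Kat6a-cKO), and the dentate granule list, at 112 to 114 CPM against 83.4 to 108 CPM, each with all 9 markers detected. The list of near-projecting nuclei, the class highest in Kremen1, was another of the 8, and the direction of its difference is not given here. The part of other cells in the Kremen1 values was not tested.

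Mossy nuclei had 70.2 and 88.5 CPM of Kremen1 (Control) against 109 and 106 CPM (Kat6a-cKO), again without overlap, as for 38.9% of all genes tested in mossy nuclei (0.46 ± 0.17, edgeR adjusted p = 0.371). Summed levels of 13 of 25 marker lists did not overlap between genotypes in mossy nuclei, a share above that of all genes. Among them were the mossy list, all 6 markers detected, at 511 to 521 CPM (Control) against 403 to 440 CPM (Kat6a-cKO), the CA3 list, all 9 detected, at 3987 to 4000 CPM against 3493 to 3557 CPM, and the astrocyte list, all 10 detected, at 326 to 362 CPM against 401 to 466 CPM. Their part in the Kremen1 values was not tested. In CA1 nuclei the difference was 0.21 ± 0.18 and in dentate granule nuclei 0.06 ± 0.16, with overlapping groups in both. The interaction of class and genotype tests whether CA3 differs from them. No gene of the 48 passed, of 32 tested against CA1 (0.03% of all genes) and of 32 tested against dentate granule nuclei (0.0973% of all genes), by edgeR, and none by DESeq2 (0.066% and 0.0286% of all genes), which left 24 and 26 of the 32 without an adjusted p. Genes with an unadjusted p under 0.05 numbered 2 against CA1, where 6.3% of all genes had one, and 1 against dentate granule nuclei, where 5.43% did. For Kremen1 the log2 difference in CA3 exceeded that in CA1 by 0.36 ± 0.13 (edgeR adjusted p = 0.681) and that in dentate granule nuclei by 0.52 ± 0.12 (edgeR adjusted p = 0.157). Without the first Control library the comparison with dentate granule nuclei passed for Kremen1 (0.60, edgeR adjusted p = 0.0216), and without the second it passed for Ror1 (edgeR adjusted p = 0.00894). Fzd3 differed in the comparison with CA1 by −0.25 ± 0.08 (edgeR adjusted p = 0.625).

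**Figure D5:**
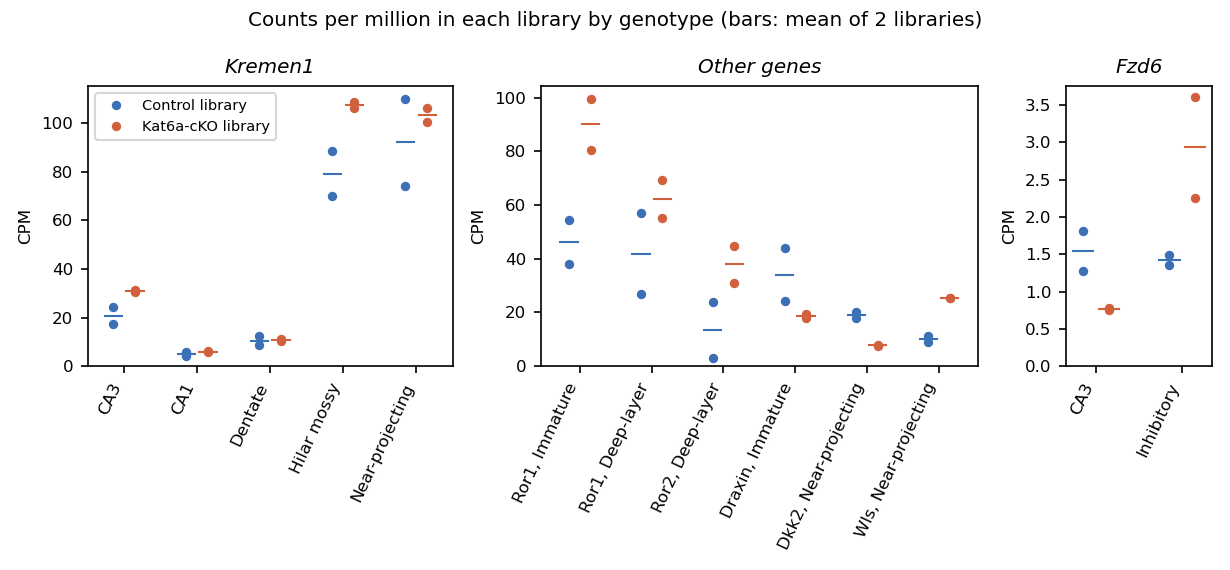
Level in CPM in each library (Control blue, Kat6a-cKO orange, short bars for the mean of 2) for Kremen1 in 5 classes, for 5 other genes in classes where their unadjusted p was under 0.05, and for Fzd6. Kremen1 in CA3 was 17.3 and 24.2 CPM (Control) against 31.5 and 30.4 CPM (Kat6a-cKO), and no difference shown passed an adjusted p of 0.05.

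In near-projecting excitatory nuclei the groups stood apart for Wls and for Dkk2, an antagonist that binds LRP co-receptors. Wls had 11.1 and 8.86 CPM (Control) against 25.3 and 25.4 CPM (Kat6a-cKO) (1.32 ± 0.21, edgeR adjusted p = 0.0897, DESeq2 adjusted p = 0.0979). Dkk2 (chromosome 3, 132085292 to 132180304, plus strand) had 20.3 and 18.1 CPM (Control) against 7.99 and 7.43 CPM (Kat6a-cKO) (−1.31 ± 0.23, edgeR adjusted p = 0.118, DESeq2 adjusted p = 0.291). Neither pair of groups overlapped, as for 36% of all genes tested in this class, and neither passed. After subtraction of free RNA, estimated at 4.81 CPM of Wls, the log2 difference of Wls was 1.997 (edgeR adjusted p = 0.0925). Wls and Dkk2 passed without the first Control library and without the second, when Dkk3 and Wnt4 passed too. Neither Wls nor Dkk2 passed without the first Kat6a-cKO library or without the second. Each such fit leaves a single library in a group, so its spread comes from the other group alone. With no filter on low counts Wls and Dkk2 passed (Wls edgeR adjusted p = 0.00188, Dkk2 0.00572). The share of all genes that passed with no filter in this class is not given here. The class consists of 2 clusters whose shares differed between libraries. The cluster led by Vwc2l held 140 and 133 nuclei (Control) against 242 and 261 (Kat6a-cKO), and the cluster led by Npsr1 145 and 40 (Control) against 97 and 58 (Kat6a-cKO). A fit of each cluster alone was chosen after seeing the data. In the cluster led by Vwc2l, Wls changed by 1.59 (edgeR adjusted p = 0.000821) and Dkk2 by −2.07 (edgeR adjusted p = 0.00156), with 149 of 11076 genes passing. In the cluster led by Npsr1, where 6 of 7813 genes passed, Wls differed by 0.83 (edgeR adjusted p = 0.786) and Dkk2 by −0.0035. Wls values there were 12.8 and 15.1 CPM (Control) against 22.6 and 25.5 CPM (Kat6a-cKO). These did not overlap, and the share of all genes without overlap was not computed for single clusters. Whether the clusters differ in the change was not tested. Dkk2 in the first was 22.9 and 15.5 CPM (Control) against 2.84 and 6.10 CPM (Kat6a-cKO), and in the second 17.1 and 30.3 CPM and 24.4 and 14.99 CPM. Dkk3 in the class had 106 and 47.0 CPM (Control) against 51.2 and 30.2 CPM (Kat6a-cKO), with overlap (−0.94 ± 0.36, edgeR adjusted p = 0.598), and was −0.80 and −0.26 within the clusters. With libraries left out singly its difference ran from −0.16, without the first Control library (edgeR adjusted p = 0.929), to −1.40, without the second. Summed levels of 8 of 25 marker lists did not overlap between genotypes in this class, a share near that of all genes. Among the 8 were the lists of inhibitory neurons, Lamp5-type interneurons, oligodendrocytes, committed oligodendrocyte precursors and microglia. The others were those of CA1, dentate granule and immature neurons. Wls was high in these glia, and the direction in which their marker lists differed is not given here. Among interneurons Dkk2 was highest in Lamp5-type nuclei, at a mean below both Control values of near-projecting nuclei. Inhibitory markers were at 272 to 307 CPM (Control) against 156 to 164 CPM (Kat6a-cKO), with all 8 detected. The part of RNA from such cells in the values of Wls and Dkk2 was not tested.

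Immature neurons had 38.2 and 54.5 CPM of Ror1 (Control) against 99.6 and 80.7 CPM (Kat6a-cKO), without overlap, as for 38% of all genes tested (1.05 ± 0.22, edgeR adjusted p = 0.0847). Ror1 passed without the second Control library and without the second Kat6a-cKO library, but not without the first of either group. Each such fit leaves a single library in a group. Ror1 also passed with no filter on low counts (edgeR adjusted p = 0.00323) and at Leiden resolution 2, a finer clustering (edgeR adjusted p = 0.0419). It passed too with equal replicate numbers as a block (edgeR adjusted p = 0.029). For these fits the share of all genes passing in this class is not given here. Draxin passed without the second Control library and in no other fit with a library left out. Its difference was −0.30 without the first Control library. Draxin had 44.0 and 24.2 CPM (Control) against 19.5 and 17.8 CPM (Kat6a-cKO) (−0.82 ± 0.33, edgeR adjusted p = 0.441) and Lrp5 25.7 and 30.3 CPM against 17.9 and 13.7 CPM (−0.71 ± 0.32, edgeR adjusted p = 0.515). The summed level of the markers of immature neurons also differed without overlap, from 1186 to 1417 CPM (Control) against 899.5 to 1078 CPM (Kat6a-cKO), as did 9 of 25 lists in all, a share near that of all genes. All 6 of these markers were detected. The part of this difference in the values of Ror1, Draxin and Lrp5 was not tested.

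Deep-layer excitatory nuclei had 4 genes with an unadjusted p under 0.05. Ror2 had 23.7 and 3.0 CPM (Control) against 44.9 and 30.8 CPM (Kat6a-cKO) (1.44 ± 0.42, edgeR adjusted p = 0.129), so the Control libraries differed from each other more than the nearest values of the groups did. The counts were 32 and 3 molecules (Control) against 100 and 48 (Kat6a-cKO). Without the first Control library Ror2 differed by 3.73, a value that rests on the 3 molecules of the second. It differed by 1.68 without the second Kat6a-cKO library, by 0.73 without the second Control library and by 1.09 without the first Kat6a-cKO library. With no filter on low counts its edgeR adjusted p was 0.000281. The share of all genes that passed in that fit is not given here. Ror1 was 0.69 ± 0.26 higher (edgeR adjusted p = 0.321), with 26.7 and 57.0 CPM (Control) against 69.2 and 55.3 CPM (Kat6a-cKO) and overlap. It passed without the second Control library and without the second Kat6a-cKO library, but not without the first of either group. Its difference ran from 0.22, without the first Control library, to 1.26, without the second. Lrp6 differed by 0.36 ± 0.17 and Dkk3 by −0.46 ± 0.18, both without overlap, as for 39.3% of all genes tested. Dkk3 had 164 and 109 CPM (Control) against 98.4 and 95.8 CPM (Kat6a-cKO), so most of its difference came from the first Control library. Summed levels of 9 of 25 marker lists did not overlap between genotypes here, a share near that of all genes. Among the 9 were the deep-layer list, all 5 markers detected, at 6083 to 6524 CPM (Control) against 6809 to 6941 CPM (Kat6a-cKO), and astrocyte markers, all 10 detected, at 769 to 810 CPM against 679 to 721 CPM. Their part in these values was not tested.

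The other pairs with an unadjusted p under 0.05 did not pass either, and several were of low count. Fzd6 in CA3 had 20 and 32 molecules (Control) against 13 and 15 (Kat6a-cKO) (−1.004 ± 0.37, edgeR adjusted p = 0.503), and in inhibitory neurons 14 and 16 against 26 and 36 (1.04 ± 0.37, edgeR adjusted p = 0.562). The mean levels, 1.15 and 2.18 CPM, were close to the 0.769 and 2.09 CPM that free RNA was estimated to give. After subtraction of free RNA Fzd6 had too few counts for the genotype fit in either class. The interaction between CA3 and inhibitory neurons, added after seeing these values, called 0 of 33 genes by edgeR (0.0371% of all genes) and 0 by DESeq2 (0% of all genes) and gave 2 an unadjusted p under 0.05 (5.32% of all genes). Wnt7a was lower in CA1 (−0.61 ± 0.25) and in dentate granule nuclei (−0.85 ± 0.30), where it stood at 0.948 and 1.27 CPM (Control) against 0.493 and 0.726 CPM (Kat6a-cKO). Wnt2 in dentate granule nuclei had 23 and 19 molecules against 5 and 10 (−1.15 ± 0.43), also near its free RNA estimate of 0.233 CPM. Frzb in CA2 nuclei had 18.3 and 16.9 CPM against 8.63 and 13.4 CPM (−0.64 ± 0.25). In glia, Lrp6 was higher in OPC (0.29 ± 0.13) and microglia (0.33 ± 0.13), Fzd3 lower (−0.41 ± 0.17) and Ryk higher (0.35 ± 0.16) in astrocytes, and Wnt2b lower in microglia (−1.72 ± 0.59) with 14 and 11 molecules against 5 and 2. The edgeR adjusted p of these pairs lay between 0.364, for Wnt7a in dentate granule nuclei, and 0.754, for Lrp6 in OPC.

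Of 83 other genes of the pathway (destruction complex, beta-catenin and TCF factors, target genes, R-spondins and their receptors, planar polarity), 71 were tested in CA3 and 0 passed, with 6 at an unadjusted p under 0.05, where 7.85% of all genes had one. DESeq2 called 1 of the 71, Rspo2, and 0.157% of all genes. In CA1 edgeR called 0 of 73 and DESeq2 1, Gpc4, beside 0.75% of all genes by DESeq2. In near-projecting nuclei edgeR called 1 of 63 (0.0492% of all genes) and in deep-layer nuclei 1 of 50 (0.791% of all genes), Rspo2 in both. Rspo2, a ligand that raises Wnt reception, fell in near-projecting nuclei, with 221 and 228 CPM (Control) against 94.6 and 93.0 CPM (Kat6a-cKO) (−1.25 ± 0.11, edgeR adjusted p = 0.00474) and in deep-layer nuclei, with 274 and 252 CPM against 126 and 159 CPM (−0.85 ± 0.15, edgeR adjusted p = 0.00645). The deep-layer call was lost without the first Control library (edgeR adjusted p = 0.065), without the first Kat6a-cKO library (0.077) and at the higher minimum of UMIs (0.0793). In the cluster led by Npsr1 alone the Rspo2 difference was −0.63 (edgeR adjusted p = 0.545), and in the cluster led by Vwc2l −1.46 (edgeR adjusted p = 1.02e-07). In the other 10 classes edgeR called 0 of the 83, with 1 to 7 of them at an unadjusted p under 0.05 in a class, where 4.54% to 9.91% of all genes had one, and DESeq2 called 0 of those with an adjusted p.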

How the data were processed

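The authors deposited unnormalised UMI counts of each gene in each barcode for 4 single-nucleus libraries (2 Control, 2 Kat6a-cKO). The submitters' processing notes name Seurat 4.0.1 and the build mm10; the aligner, annotation and counting strand are not given in the sources used here. Barcodes of at least 5000 UMIs (at least 1000 for glia and vascular cells) were kept. Doublets were called by Scrublet in scanpy 1.11.5 (expected rate 0.06) and left out. The 48 genes, 83 other pathway genes, Kat6a, Cre and mitochondrial genes stayed out of the clustering (2000 variable genes, 30 components, 15 neighbours, Leiden resolution 1, leidenalg 0.10.2, seed 0). A cluster took a class name where at least 50% and at least 3 of its markers were raised 2-fold, with 5 CPM added, or at least 80% over the median cluster; these naming thresholds were chosen after looking at the data. Of the nuclei, 35146 received a name and 3686 stayed in unnamed clusters.

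Counts were summed per class and library and tested with edgeR 4.0.16 (R 4.3.3; quasi-likelihood, TMM, filterByExpr, adjusted over all genes); DESeq2 1.42.0, other filters, left-out libraries, a replicate block and free-RNA subtraction were alternatives. The test was checked on simulated data. The genes named are those that reached 5 CPM in a class, those with an unadjusted p under 0.05 in a tested class, the 6 highest in CA3, and other pathway genes with an adjusted p under 0.05. Members and lists were chosen with earlier results of these data known. Of the 48 genes, 15 overlap a gene on the opposite strand. Shares of nuclei are the expected values after thinning. The borders of the interneuron subclasses, found by clustering inhibitory nuclei again, moved slightly with the numerical library used.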

Additional observations from a re-analysis of the deposited data

Results flagged for a closer look

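Fzd6 had log2 fold changes of opposite sign in 2 classes. It had 20 and 32 molecules (Control) against 13 and 15 (Kat6a-cKO) in CA3 nuclei, and 14 and 16 (Control) against 26 and 36 (Kat6a-cKO) in inhibitory neurons, with no overlap between groups in either, as for 36.4% and 35.5% of all genes tested in these classes, and the log2 fold changes differed by 2.04. The interaction of class and genotype, fitted after seeing this, gave −2.07 ± 0.49 (SE, CA3 minus inhibitory neurons) with edgeR adjusted p = 0.298, and 0 of 33 genes passed in that comparison, 2 with an unadjusted p under 0.05, where 0.0371% and 5.32% of all genes did. DESeq2 called 0 of them. With no filter on low counts the Fzd6 interaction had edgeR adjusted p = 0.0129. Mean levels in CA3 and inhibitory nuclei were 1.15 and 2.18 CPM, and free RNA was estimated to give 0.769 and 2.09 CPM; its part in the difference was not tested. With 2 libraries per group no group was large enough for a check of single outlying libraries.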

How the results depend on the processing

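With no adjusted p under 0.05 for any of the 48 genes in the primary fits, the count of passing genes was above 0 in some alternatives. The share of all genes passing moved too. It is given here for CA3, CA2, CA1 and dentate granule nuclei, so calls in other classes stand without it. In CA3 it went from 0.0131% to 1.09% with no filter on low counts and 1.65% with the replicate block, and in CA2 from 0.0368% to 0.47% and 1.09%. In CA1 it went from 0.0914% to 2.05% with no filter and stayed at 0.0914% with the block. In dentate granule nuclei it went from 0.399% to 2.1% and 1.11%. In CA3 it was 1 (Kremen1) with no filter on low counts and 1 with the replicate block, and 0 to 1 when libraries were left out singly. Over the 11 other classes outside CA3, CA1 and dentate granule nuclei it was 4 with no filter, 1 with the replicate block, 1 at Leiden resolution 2 (Ror1 in immature neurons) and 0 to 7 when libraries were left out, with the most when the second Control library was missing. In the comparison of CA3 with dentate granule nuclei it was 1 with no filter and 0 to 1 with libraries left out. In that of CA3 with inhibitory neurons it was 1 with no filter (Fzd6) and 0 to 1 with libraries left out (Kremen1 without the second Control library, 1.18, edgeR adjusted p = 0.0491). The genes concerned were Kremen1, Dkk2, Wls, Dkk3, Wnt4, Ror1, Ror2, Draxin and Fzd6. DESeq2 size factors, a higher minimum of UMIs and subtraction of free RNA gave 0 throughout, as did the DESeq2 test where it gave an adjusted p (undefined for 103 of 250 pairs of gene and class, all 12 in immature neurons among them), and CA1 and dentate granule nuclei stayed at 0 in every alternative run, as did the comparison of CA3 with CA1. With the block, 252 genes in all passed in CA3 against 2 without it; Kremen1 in CA3 had edgeR adjusted p = 0.00864 and Ror1 in immature neurons 0.029. The labels do not say that equal replicate numbers pair libraries, and the deviations of same-numbered libraries correlated at 0.105 in CA3, 0.11 in CA1 and 0.0833 in dentate granule nuclei.

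Among 38 named genes by class or comparison, 401 alternatives were run and 3 reversed the sign: Fzd3 in CA3 became −0.16 without the first Control library and −0.15 without the second Kat6a-cKO library, and Fzd6 in the comparison of CA3 with CA1 became 0.29 without the first Kat6a-cKO library. Over the 4 left-out libraries they ranged from −0.16 to 0.22 and from −1.52 to 0.29. The fall of Rspo2 in deep-layer nuclei lost its call without the first Control library (−0.76, edgeR adjusted p = 0.065), without the first Kat6a-cKO library (−0.71, edgeR adjusted p = 0.077) and at a higher minimum of UMIs (−0.92, edgeR adjusted p = 0.0793). The causes were not tested. For levels by class the alternatives were a higher minimum of UMIs, Leiden resolution 2 and subtraction of free RNA, with no library left out. Of 30 genes that reached 5 CPM, 30 did so under each of these. All kept their highest class over the mean of both genotypes except Sfrp1 and Porcn at the higher minimum of UMIs. Subtraction of free RNA moved Wls in near-projecting nuclei from 1.32 to 1.997, Wnt2b in microglia from −1.72 to −2.43 and Wnt2 in dentate granule nuclei from −1.15 to −6.46. For Wnt2 the estimate exceeded the 5 and 10 molecules of the Kat6a-cKO libraries and left none in either. The value of −6.46 therefore does not measure the size of the difference. Over the 14 classes the median standard error of the genes tested ran from 0.20 (dentate granule, 31 genes) to 0.38 (committed precursors, 10 genes) on the log2 scale.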

Other observations

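Levels outside the named classes were also measured. Of 4 larger clusters that stayed unnamed, the one with Klhl1, Grm8 and Tox among its 10 leading genes held Wnt2 at 9.61 CPM and the one led by Fn1 at 15.6 CPM, while the 2 led by Dcn held 2.41 and 3.33 CPM. Ror1 ranged from 71.1 to 390 CPM over these 4 clusters and Dkk3 from 78.7 to 162 CPM, whereas Kremen1 stayed between 5.43 and 9.26 CPM. Cajal-Retzius nuclei, 102 in all and too few for the genotype comparison, held 17.0 CPM of Wnt7b, 131 CPM of Dkk3 and 8.46 CPM of Draxin, the last from 8 molecules. Kremen1 also differed between dentate granule clusters, with 19.6 ± 4.79 CPM in the one led by Gm6999 and 7.41 to 8.66 CPM in the other 3 (SD, n = 4 libraries). That same dentate cluster held the least Ror1 (57.5 CPM) and the least Frzb (10.7 CPM) of the 4.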
